A study of Mus musculus with 6 samples.

Results

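The collagen genes were followed in fibroblasts grown from mouse colon, the cells that make the connective tissue of the bowel wall. Every row of the deposited expression table whose symbol has the form of a collagen chain (Col, a type number, a and a chain number) was taken, which gave 43 genes of 16874. RNA sequencing had been done on fibroblasts of C57BL/6 mice, 12 weeks old, in 3 libraries with the genotype WT and 3 with the genotype Prkcz-/-, the latter lacking, by their label, the atypical protein kinase C zeta. All were grown untreated in serum-containing DMEM and harvested at about 80% confluency, 24 h after they were plated. The design text of the series names control and Sox2 guides and biological replicates, but whether these cells carried a guide, and whether each library had its own mouse or culture, is not in the sample labels. The p-values therefore measure the spread between these libraries, which may be technical. Values are FPKM, that is fragments scaled by gene length and library size. The authors' gene lengths are not known here, and levels of different chains set side by side depend on them.

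The targeted gene went against its label. Prkcz measured 0.0433, 0.144 and 0.202 FPKM in WT libraries 1 to 3 and 1.35, 1.32 and 1.17 FPKM in the 3 labelled Prkcz-/-. The table holds 1 value per gene, which does not tell reads of a deleted stretch from the rest. Each direction given is that of the Prkcz-/- label against the WT label and means no more than that. Depth was estimated, from the smallest steps in the values and annotated exon lengths, at roughly 14707000 to 16205700 reads in WT and 14707000 to 16893900 reads in the other group. Of 8 fibroblast markers, all tested, 6 were higher and 2 lower by the calls defined below. Fap, among the 6, passed the filter on low values only through the libraries labelled Prkcz-/-. Lum, among the 2, passed it only through WT, so that both genes had to differ. Over all tested genes 31.5% were higher and 37.2% lower. Vim measured 1628 ± 76.5 and 2496 ± 60.5 FPKM and S100a4 1027 ± 39.9 and 2121 ± 22.2 FPKM (SD, n = 3 each, WT first), while Dcn and Lum, also on that list, fell by 3.09 and 2.71 on the log2 scale. In bulk RNA of this kind, fewer cells of a type and less RNA per cell cannot be told apart.

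Collagens are secreted proteins whose chains wind by threes into a helix built on glycine at regular intervals. Fibrillar collagens form the tensile fibres of connective tissue, FACIT collagens sit on the surface of those fibres, network collagens build sheets such as the basement membrane, and microfibrillar type VI collagen links cells to the fibres around them. Multiplexins and the anchoring fibril collagen lie at basement membranes, and transmembrane collagens stay in the plasma membrane. Several types, such as I, IV, V, VI and VIII, can combine chains from more than one gene, and others are built from a single chain. For the former, the balance between partner chains bears on the matrix a fibroblast can make. In the gut wall, fibroblasts and smooth muscle cells both make fibrillar collagen.

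Groups were compared gene by gene on log2(FPKM + 0.5) with limma, for the 12130 genes whose 6 libraries averaged 0.5 FPKM or more, and an adjusted p under 0.05 (Benjamini-Hochberg over all of these genes) is called higher or lower below. Of the 43 chains 25 were tested, of which 17 were higher, 6 lower and 2 not called. Over all tested genes 31.5% were called higher and 37.2% lower, 68.7% in all, so a call by itself is common in this comparison. Which direction led among all genes depended on the scaling: with library sums equalised without short RNA genes 37.3% were higher and 31.0% lower, and the median of all genes rose by 0.08 in log2. With a log2 difference of at least 1 as well, 12 chains were higher and 1 was lower, where 7.29% and 3.55% of all tested genes were. On this scale the change of low genes is understated. The median log2 difference was 0.73 over the 25 tested chains and -0.04 over all tested genes. Col10a1, Col15a1 and Col6a4 passed the filter on low values only through the libraries labelled Prkcz-/-, where they are high, so that they had to differ, and no p is given for them. Over the other 22 tested chains, which averaged 0.5 FPKM or more in both groups, 14 were higher and 6 lower, and 9 and 1 of these by a log2 difference of at least 1. Of the 11462 genes that met the same condition, chosen after the data were seen, 29.9% were higher and 38.0% lower, and 4.97% and 2.88% by at least 1 in log2. The median log2 difference was 0.52 over these 22 chains and -0.05 over these genes. The filter fell in a gap, between Col9a3 at a mean of 0.446 FPKM and Col6a4 at 2.14 FPKM.

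**Figure D1:**
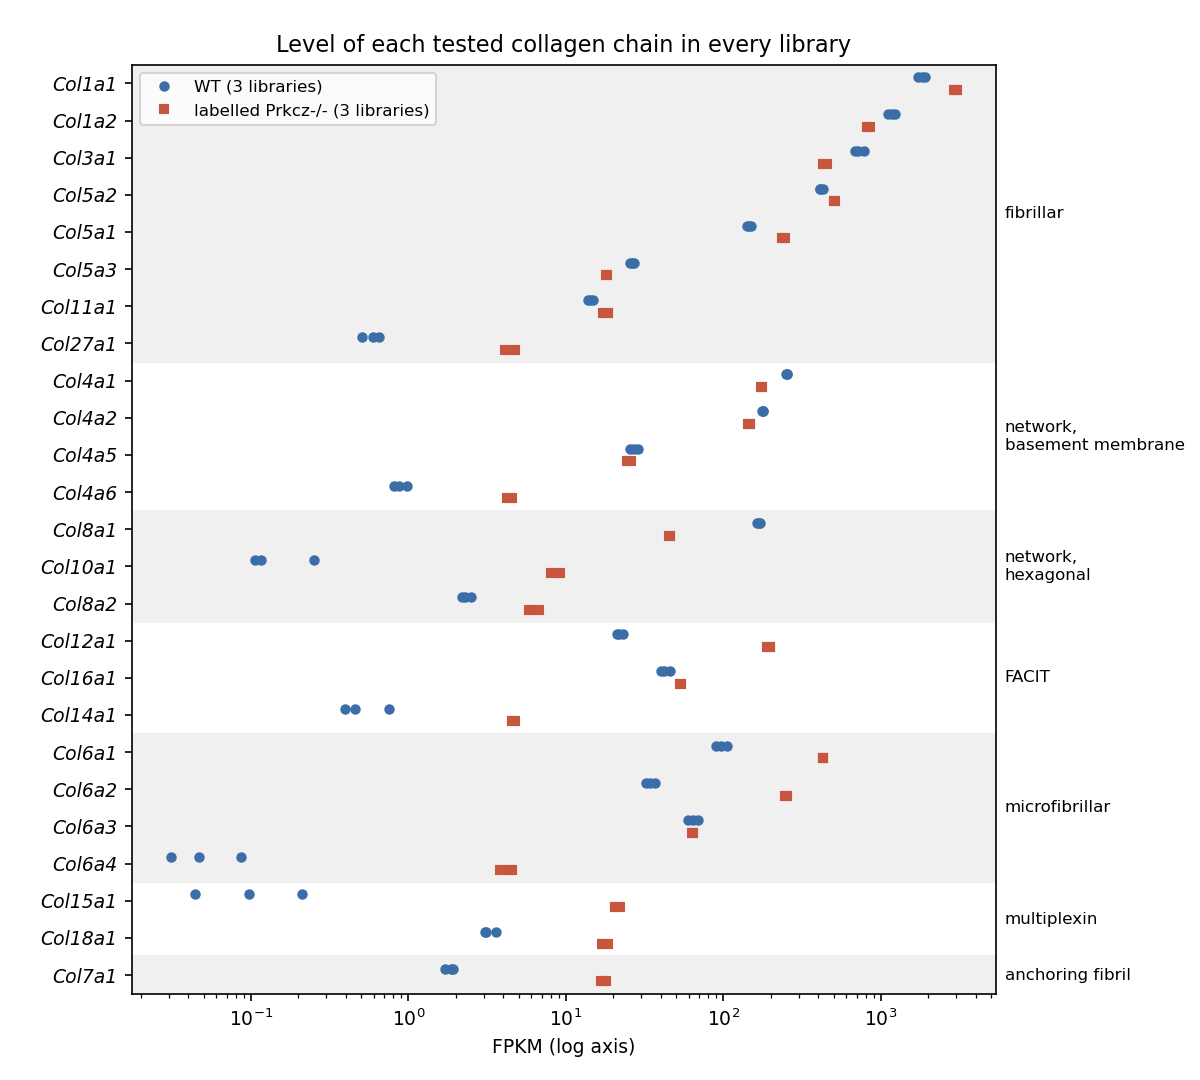
FPKM on a log axis of the 25 tested collagen chains, ordered by class, with a circle for each WT library and a square for each library labelled Prkcz-/-. Col1a1 is the highest chain in every library, and Col15a1, Col6a4 and Col10a1 lie far to the left in WT.

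As a share of the FPKM sum of all genes, the 43 chains together held 1.07%, 1.19% and 1.07% in the WT libraries and 1.47%, 1.49% and 1.44% in the libraries labelled Prkcz-/-. The groups did not overlap. Within that collagen total the fibrillar class held 83.05, 83.2 and 82.3 percent in WT and 77.3, 77.7 and 77.1 percent in the other group. The microfibrillar class held 3.67, 3.87 and 3.72 percent in WT against 11.6, 11.4 and 11.6 percent. The FACIT class held 1.24, 1.29 and 1.27 percent against 3.96, 3.77 and 4.01 percent. Both were larger shares in each library labelled Prkcz-/- than in any WT library. The basement membrane network class held 8.73, 8.39 and 9.196 percent against 5.42, 5.35 and 5.41 percent, and the hexagonal network class 3.21, 3.15 and 3.398 percent against 0.911, 0.939 and 0.952 percent, both smaller shares. These sums are descriptions that depend on the gene lengths used, and they were not tested.

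**Figure D2:**
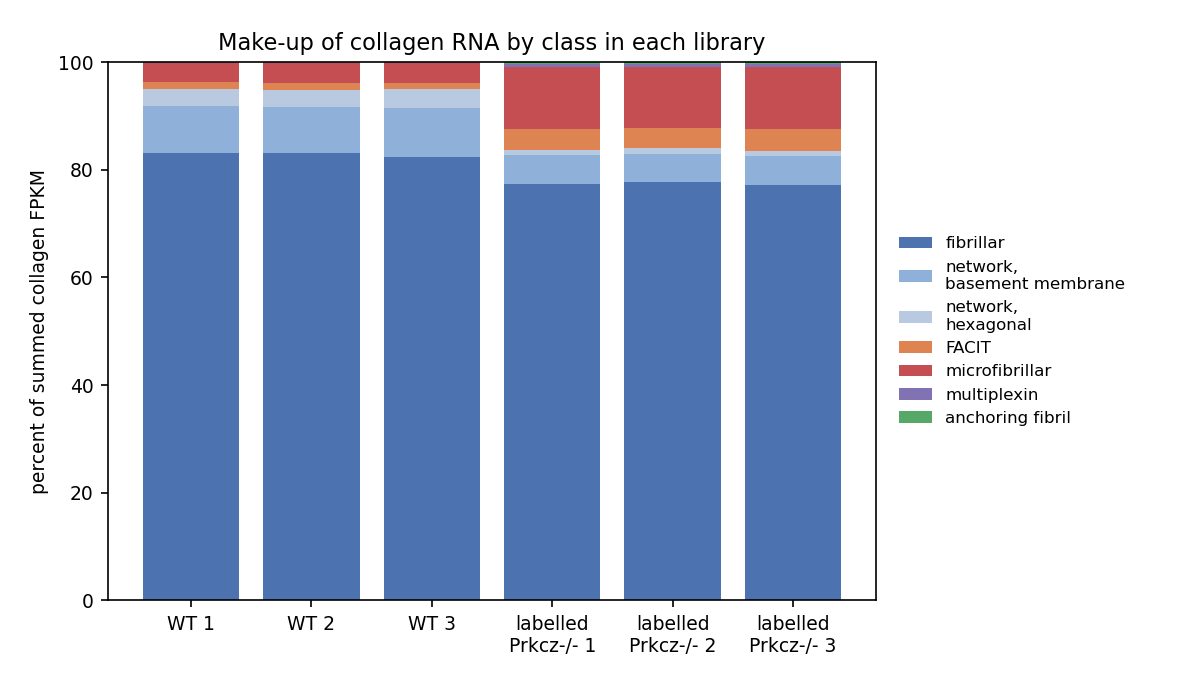
Stacked bars give each collagen class as a percent of the summed FPKM of all collagen chains, 1 bar per library, with the axis from 0 to 100. The microfibrillar band takes 3.67 to 3.87 percent in WT and 11.4 to 11.6 percent in the libraries labelled Prkcz-/-.

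The order of levels, which within a group depends on the gene lengths used, also shifted below the leading pair. In WT the mean levels ran Col1a1, Col1a2, Col3a1, Col5a2, Col4a1, Col4a2, Col8a1 and Col5a1 from the highest down, and no neighbours in that run overlapped between libraries. In the libraries labelled Prkcz-/- they ran Col1a1, Col1a2, Col5a2, Col3a1, Col6a1, Col6a2, Col5a1 and Col12a1. Of these, Col3a1 and Col6a1 overlapped, and the others did not overlap with their neighbour. Col12a1 moved from rank 15 to rank 8 of the 43 chains, Col15a1 from rank 28 to rank 15, and Col8a1 from rank 7 to rank 13.

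The fibrillar class held the most abundant chains, and its members went in opposite directions. Of 11 members 8 were tested, with 5 higher and 3 lower (median log2 difference 0.30). Col1a1 (chromosome 11, 94936224 to 94953042, plus strand), which encodes the α1 chain of type I collagen, measured 1820.0, 1901 and 1724 FPKM in WT libraries 1 to 3 and 2989, 3029 and 2899 FPKM in libraries 1 to 3 labelled Prkcz-/-. Every library labelled Prkcz-/- was above every WT library, at a log2 difference of 0.71 (SE 0.0469, adjusted p = 5.06e-06). Col1a2 (chromosome 6, 4504814 to 4541544, plus strand), its partner in the type I heterotrimer, measured 1168, 1232 and 1115 FPKM in WT and 818, 848 and 812 FPKM in the other group. All 3 of these were below every WT library, at a log2 difference of -0.50 (SE 0.0445, adjusted p = 2.65e-05). Col3a1 (chromosome 1, 45311538 to 45349706, plus strand), the single chain of type III collagen, which is abundant in distensible tissues such as the bowel wall, measured 720.2, 785 and 683 FPKM in WT and 429, 454 and 439 FPKM in the other group. Its groups were also apart, with a log2 difference of -0.73 (SE 0.0534, adjusted p = 9.39e-06).

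Type V and XI chains join fibrils in small amounts and control where they start and how thick they grow. Col5a1 measured 144, 149.6 and 140.3 FPKM in WT and 239, 247 and 236 FPKM in the libraries labelled Prkcz-/-, a log2 difference of 0.73 (SE 0.0359, adjusted p = 1.03e-06). Col5a2, its usual partner, measured 412, 427 and 412 FPKM in WT and 500.4, 507 and 502 FPKM in the other group, a smaller rise of 0.27 (SE 0.0306, adjusted p = 1.06e-04) in log2. Col5a3, the chain found in a rarer form of type V, went the other way, from 26.2, 26.9 and 25.4 FPKM in WT to 17.9, 18.3 and 18.2 FPKM, a log2 difference of -0.52 (SE 0.0393, adjusted p = 1.14e-05). The groups were separate for each of these type V chains. Col11a1, which is best known from cartilage but also joins type V fibrils, measured 14.3, 14.8 and 13.9 FPKM in WT and 17.2, 18.5 and 18.6 FPKM in the other group, and rose by 0.33 (SE 0.0493, adjusted p = 5.51e-04) in log2. Col27a1, a fibrillar chain of cartilage and developing tissues, was low in WT, at 0.592, 0.647 and 0.508 FPKM, and reached 4.74, 4.102 and 4.604 FPKM. That was 7.69-fold higher in the means and a log2 difference of 2.20 (SE 0.101, adjusted p = 6.90e-07), the largest of the tested fibrillar chains. The other fibrillar chains were under the filter. Col2a1, the main fibrillar chain of cartilage, measured 0.0239, 0.0396 and 0.203 FPKM in WT and 0.619, 0.309 and 0.563 FPKM in the other group. Col11a2, a partner of Col11a1 in cartilage, ranged over 0.188 to 0.2296 FPKM in WT and 0.294 to 0.366 FPKM in the other group, and Col24a1 over 0.211 to 0.279 FPKM in WT and 0.0634 to 0.117 FPKM in the other group. At these low levels Col2a1 and Col11a2 were higher and Col24a1 lower in each library labelled Prkcz-/- than in any WT library.

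**Figure D3:**
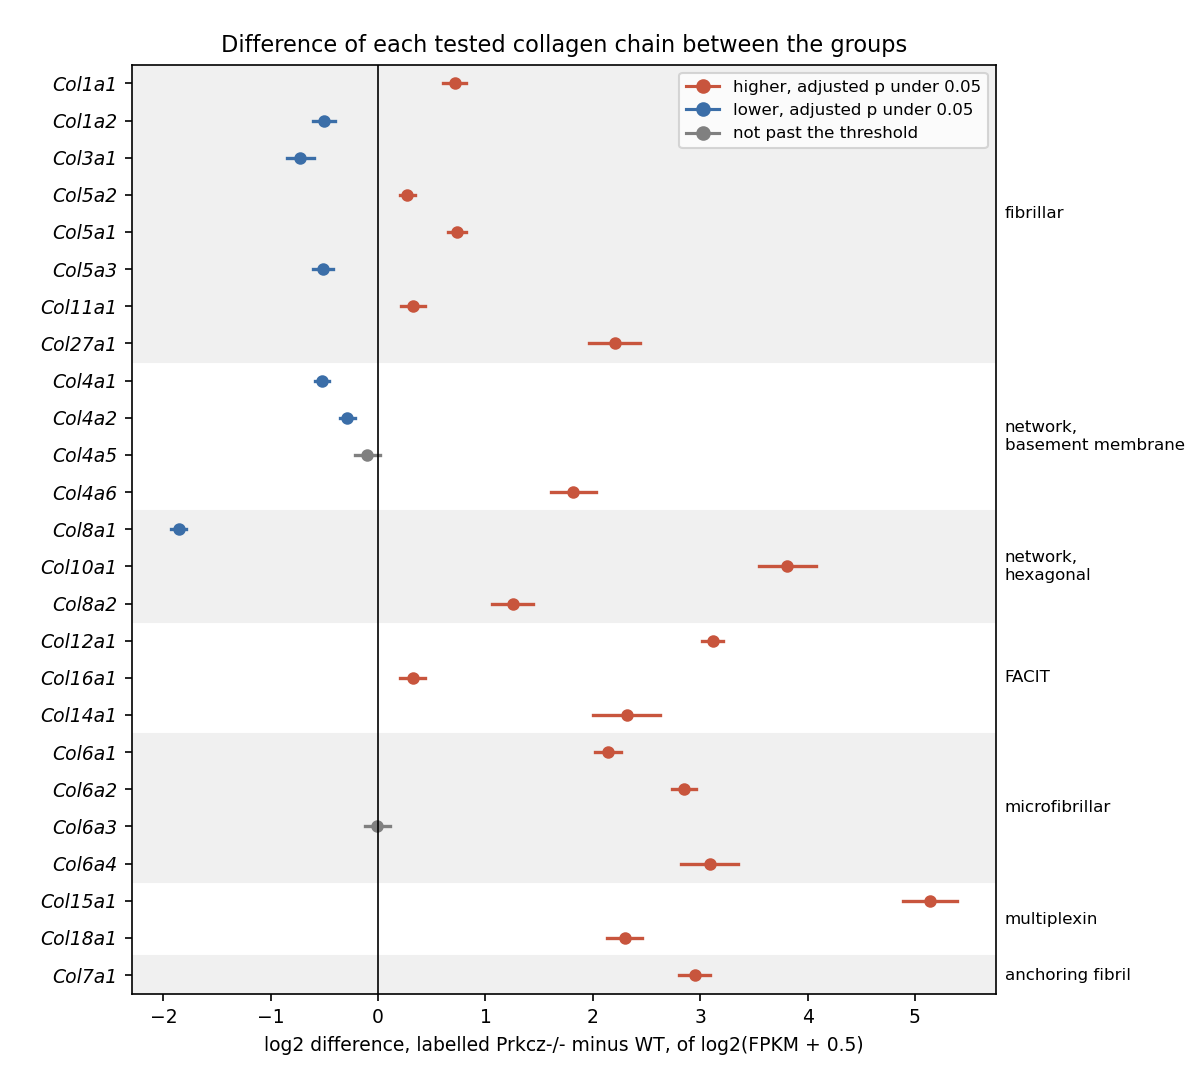
Points give the log2 difference of the 25 tested chains (libraries labelled Prkcz-/- minus WT, log2(FPKM + 0.5)), and lines its 95% interval from limma, unadjusted, ordered by class. Chains on both sides of 0 stand in the fibrillar class and in both network classes, while Col4a5 and Col6a3 have intervals that include 0. Col10a1, Col15a1 and Col6a4 are drawn like the rest, although the filter meant that they had to differ.

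Type VI collagen, the microfibrillar class, is assembled from an α1 chain, an α2 chain and a longer chain, which is α3 or one of its relatives α4 to α6. Of 6 members 4 were tested, with 3 higher, 1 of them Col6a4, and 1 not called. Col6a1 (chromosome 10, 76708792 to 76726168, minus strand) measured 96.4, 105 and 90.02 FPKM in WT and 430.2, 430.4 and 429 FPKM in the libraries labelled Prkcz-/-, 4.42-fold higher in the means (log2 difference 2.14, SE 0.0534, adjusted p = 2.94e-08). Col6a2 (chromosome 10, 76595762 to 76623630, minus strand), on the same strand of the same chromosome with 85161 bases between the annotated genes, measured 34.1, 36.9 and 32.2 FPKM in WT and 252, 252 and 248 FPKM in the other group, 7.29-fold higher (log2 difference 2.85, SE 0.0492, adjusted p = 5.68e-09). Both were far apart between the groups. Col6a3 (chromosome 1, 90765923 to 90843971, minus strand), the usual long chain, measured 59.9, 68.9 and 63.7 FPKM in WT and 63.3, 64.1 and 63.9 FPKM in the other group, and the libraries overlapped. Its log2 difference was -0.01 (SE 0.0504, adjusted p = 0.918), with a 95% interval of -0.12 to 0.11, so that a change as large as that of Col6a1 lies outside the interval. The sign of this small difference turned with the scaling and without WT replicate 2.

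The relatives of Col6a3 lie side by side on chromosome 9. Col6a4 (chromosome 9, 105989454 to 106096783, minus strand) measured 0.0312, 0.0862 and 0.0468 FPKM in WT, at roughly 4.25 to 10.8 reads, and 4.28, 4.55 and 3.84 FPKM in the libraries labelled Prkcz-/-, at roughly 530.0 to 656 reads (log2 difference 3.09, SE 0.113). It was still far below Col6a3 in level. Its neighbour Col6a5 was under the filter and ranged over 0 to 0.0186 FPKM in WT and 0.133 to 0.162 FPKM in the other group, without overlap. Col6a6, at 0 throughout WT, reached 0.0159 FPKM in the others. Annotated transcripts of the opposite strand share some exon bases with Col6a4, and whether counting used strand is not known here.

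The stretches before the annotated starts of the type VI genes are shown because Col6a1 and Col6a2 differed by over 4-fold while Col6a3 did not pass the test. They are RefSeq sequences on build GRCm38.p6, minus strand, written 5′ to 3′ and cut back to the bases before any annotated exon: chr10:76726169-76726294 for Col6a1, chr10:76623631-76623880 for Col6a2 and chr1:90843972-90844221 for Col6a3. Capitals mark matches, on either strand, to CCAAT, to TATAAA or to GGGCGG, the core letters of the CCAAT, TATA and GC boxes, which were the motifs searched and do not overlap here.
Col6a1: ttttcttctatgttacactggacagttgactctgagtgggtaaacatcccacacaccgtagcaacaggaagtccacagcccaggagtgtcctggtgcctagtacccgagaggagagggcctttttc
Col6a2: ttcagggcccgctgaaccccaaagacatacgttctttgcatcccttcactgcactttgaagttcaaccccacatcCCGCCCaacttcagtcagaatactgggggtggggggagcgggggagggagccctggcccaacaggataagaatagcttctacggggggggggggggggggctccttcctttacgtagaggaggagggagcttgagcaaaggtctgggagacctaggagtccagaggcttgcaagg
Col6a3: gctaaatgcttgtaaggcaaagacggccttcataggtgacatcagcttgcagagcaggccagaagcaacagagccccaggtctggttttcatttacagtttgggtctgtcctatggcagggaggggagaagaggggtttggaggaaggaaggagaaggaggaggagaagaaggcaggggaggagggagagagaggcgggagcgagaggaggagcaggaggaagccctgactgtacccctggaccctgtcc
Of the 3, only the Col6a2 stretch held a match, to GGGCGG in its reverse form, as did 32.7% of all 32851 promoter windows of that length. The letters CCAAT occurred in 33.8% and TATAAA in 12.4% of such windows, and in none of the 3 shown. For the 126 bases of Col6a1 the shares in windows cut alike were 13.5% for the GC box letters, 16.9% for the CCAAT letters and 6.26% for the TATA letters. A match is a description of the letters and no evidence that a factor binds.

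Of the 6 basement membrane chains 4 were tested, with 1 higher, 2 lower and 1 not called (median log2 difference -0.19). Col4a1 and Col4a2, whose products form the common type IV network, lie head to head on chromosome 8 with annotated exons that overlap by 22 bases. Col4a1 measured 249, 252 and 254 FPKM in WT and 176, 177 and 173 FPKM in the libraries labelled Prkcz-/- (log2 difference -0.52, SE 0.0283, adjusted p = 1.77e-06). Col4a2 measured 177, 176 and 178 FPKM in WT and 146, 147 and 143 FPKM in the other group (log2 difference -0.29, SE 0.0287, adjusted p = 5.41e-05). Both fell, and their groups were separate.

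Col4a5 and Col4a6 are the corresponding head-to-head pair on the X chromosome, with 1308 bases between the annotated starts; their products form a network found in smooth muscle and some epithelial basement membranes. Col4a5 measured 25.5, 28.7 and 26.99 FPKM in WT and 24.4, 25.3 and 25.9 FPKM in the other group, and the groups overlapped. Its log2 difference was -0.10 (SE 0.0511, adjusted p = 0.117), with a 95% interval of -0.22 to 0.02, and without WT replicate 1 it was -0.14 with an adjusted p of 0.0389. Col4a6 measured 0.805, 0.978 and 0.875 FPKM in WT and 4.54, 4.23 and 4.39 FPKM in the other group, 4.95-fold higher in the means (log2 difference 1.82, SE 0.0894, adjusted p = 1.04e-06). Of this pair 1 chain was called and the other was not, and the difference between them was not tested. Col4a3 and Col4a4, the head-to-head pair on chromosome 1 known from kidney and lung, stayed at or under 0.0222 FPKM.

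The stretches before both starts of the X-linked pair are shown because the chains share the space between them, from RefSeq on build GRCm38.p6, chrX:141475169-141475384 on the plus strand and chrX:141474077-141474326 on the minus strand, with the same motifs in capitals.
Col4a5: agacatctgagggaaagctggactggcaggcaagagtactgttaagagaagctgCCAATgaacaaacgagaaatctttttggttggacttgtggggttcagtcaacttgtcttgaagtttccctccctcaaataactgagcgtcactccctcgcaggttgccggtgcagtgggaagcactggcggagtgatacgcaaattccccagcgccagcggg
Col4a6: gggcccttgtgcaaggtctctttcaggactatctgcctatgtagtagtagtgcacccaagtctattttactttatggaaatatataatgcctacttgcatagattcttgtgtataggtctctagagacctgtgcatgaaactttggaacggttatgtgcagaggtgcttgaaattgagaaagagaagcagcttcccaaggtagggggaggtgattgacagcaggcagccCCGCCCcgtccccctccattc
The Col4a5 stretch of 216 bases held 1 match to CCAAT, as did 30.5% of all windows cut alike, and the Col4a6 stretch of 250 bases held 1 match to GGGCGG in its reverse form, as did 32.7%. Neither held TATAAA, which 9.80% and 12.4% of the respective windows did.

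The hexagonal network chains are short collagens with few exons. All 3 were tested, with 2 higher, 1 of them Col10a1, which had to differ, and 1 lower. The lower one, Col8a1, showed the largest fall among the tested chains. Col8a1 (chromosome 16, 57624258 to 57754737, minus strand), a chain of the lattice of the corneal Descemet membrane and of vessel walls, measured 164, 169 and 168 FPKM in WT and 45.2, 46.1 and 45.95 FPKM in the libraries labelled Prkcz-/-. It was 3.65-fold lower in the means, the only tested chain that fell by more than 1 in log2 (-1.86, SE 0.0299, adjusted p = 4.23e-09). Its partner Col8a2 went up, from 2.28, 2.49 and 2.17 FPKM in WT to 5.82, 6.705 and 6.13 FPKM (log2 difference 1.25, SE 0.08197, adjusted p = 4.86e-06), with the groups apart. Col10a1 (chromosome 10, 34389981 to 34397085, plus strand), a marker of hypertrophic cartilage cells, measured 0.2504, 0.107 and 0.116 FPKM in WT, at roughly 4.91 to 12.5 reads, and 8.06, 9.19 and 8.804 FPKM in the other group, at roughly 371 to 486 reads (log2 difference 3.81, SE 0.114). Of 6 cartilage markers 5 had a row and none was tested. Their summed level was 0.345 to 0.587 FPKM in WT and 0.896 to 1.19 FPKM in the other group, led by Matn3 and Comp. Matn3 measured 0.562, 0.289 and 0.441 FPKM in WT and 0.6203, 0.586 and 0.484 FPKM in the other group and overlapped, while Comp measured 0.0254, 0.0561 and 0 FPKM in WT and 0.4202, 0.519 and 0.357 FPKM in the other group, higher in each library. Of the defining cartilage genes, Acan, listed at 0 throughout WT, reached 0.0554 FPKM in the others, and Matn1 ranged over 0 to 0.0313 FPKM in WT and 0 to 0.0346 FPKM in the other group. Of 6 bone markers 5 had a row and 1, Runx2, was tested and higher, at 5.52 ± 0.464 and 12.98 ± 0.494 FPKM (SD, n = 3), with a summed level of 5.48 to 5.96 FPKM in WT and 13.2 to 14.4 FPKM in the other group. Alpl, an alkaline phosphatase of bone and hypertrophic cartilage, was under the filter, at 0.0486, 0 and 0.0243 FPKM in WT and 0.456, 0.662 and 0.439 FPKM in the other group, higher in each library. Sp7 and Dmp1, both listed at 0 throughout WT, ranged from 0.0598 to 0.185 and 0.0429 to 0.133 FPKM in the others. The part of either list in the Col10a1 difference was not tested.

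FACIT collagens had 9 members, of which 3 were tested and all 3 were higher (median log2 difference 2.31). Col12a1 (chromosome 9, 79598991 to 79718831, minus strand), which coats type I fibrils in tissues under load, measured 21.1, 23.2 and 21.8 FPKM in WT and 197, 189 and 197 FPKM in the libraries labelled Prkcz-/-. It was 8.84-fold higher (log2 difference 3.12, SE 0.0425, adjusted p = 2.80e-09). Col14a1, a related chain of the same fibril surface, measured 0.4605, 0.749 and 0.397 FPKM in WT and 4.54, 4.53 and 4.73 FPKM in the other group, 8.59-fold higher (log2 difference 2.31, SE 0.135, adjusted p = 2.61e-06). Col16a1, a FACIT known from skin and cartilage, differed less, at 41.8, 46.1 and 40.3 FPKM in WT and 53.9, 53.8 and 52.9 FPKM in the other group (log2 difference 0.32, SE 0.0508, adjusted p = 6.85e-04), although its groups too were apart. The type IX chains Col9a1, Col9a2 and Col9a3, known from cartilage, and Col19a1, Col20a1 and Col22a1 were under the filter, with Col9a3 the highest at 0.597 FPKM.

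Multiplexins, whose C-terminal ends can be released as the endostatin fragments, were both higher, with Col15a1 among the chains that had to differ. Col15a1 (chromosome 4, 47208161 to 47313167, plus strand) measured 0.209, 0.0976 and 0.0441 FPKM in WT, at roughly 4.54 to 21.2 reads, and 20.5, 22.2 and 20.6 FPKM in the libraries labelled Prkcz-/-, at roughly 1914 to 2378 reads. The ratio of its means, 180.3-fold (log2 difference 5.14, SE 0.109), rests on few reads in WT. The size on the log2 scale moved with the pseudocount, from 4.31 to 6.68 for Col15a1, 3.07 to 5.13 for Col10a1 and 2.31 to 4.82 for Col6a4. Col18a1, the source of endostatin, measured 3.12, 3.57 and 3.05 FPKM in WT and 18.1, 18.5 and 17.03 FPKM in the other group, 5.51-fold higher (log2 difference 2.30, SE 0.0702, adjusted p = 7.78e-08). Both are also made by endothelium. Of 6 endothelial markers 5 had a row and none was tested, and the summed level was 0.614 to 0.916 FPKM in WT and 0.592 to 0.6895 FPKM in the other group. Tek ranged over 0.377 to 0.666 FPKM in WT and 0.239 to 0.318 FPKM in the other group, and Kdr over 0.161 to 0.226 FPKM in WT and 0.249 to 0.283 FPKM in the other group, lower and higher without overlap. Pecam1 ranged over 0 to 0.0199 FPKM in WT and 0.0194 to 0.0401 FPKM in the other group and overlapped, and Cdh5 was listed at 0 in each library but WT library 2. Vwf was higher without overlap, at 0.00723 to 0.0131 FPKM in WT and 0.0433 to 0.0788 FPKM in the other group. The part of this list in the differences of both chains was not tested.

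Col7a1 (chromosome 9, 108953586 to 108984875, plus strand), the anchoring fibril chain that ties epithelial basement membranes to the stroma, measured 1.91, 1.700 and 1.86 FPKM in WT and 16.8, 17.9 and 17.6 FPKM in the libraries labelled Prkcz-/-. It was 9.55-fold higher (log2 difference 2.95, SE 0.0631, adjusted p = 1.36e-08). Epithelium is another source of this chain. Of 8 epithelial markers 1, Krt19, was tested and was called lower, at 1.45 ± 0.332 and 0.801 ± 0.353 FPKM (SD, n = 3). Its groups overlapped (adjusted p = 0.0318). The summed level of the list was 1.65 to 2.48 FPKM in WT and 2.09 to 2.54 FPKM in the other group. Epcam was lower without overlap, at 0.182 to 0.273 FPKM in WT and 0.0296 to 0.152 FPKM in the other group, and Cdh1 and Krt8 were at or under 0.0522 and 0.0779 FPKM and overlapped. Cldn7, under the filter, measured 0, 0.0793 and 0 FPKM in WT and 1.03, 1.05 and 0.7201 FPKM in the libraries labelled Prkcz-/-, where it did not overlap with WT, and its part in the Col7a1 difference was not tested. The transmembrane collagens Col13a1, Col17a1, Col23a1 and Col25a1 were all under the filter, at or under 0.239 FPKM. Col23a1 was higher without overlap, at 0 to 0.0413 FPKM in WT and 0.114 to 0.239 FPKM in the other group. Col28a1, which resembles type VI, was also under the filter, at or under 0.0464 FPKM.

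Over all 43 chains, tested or not, every library labelled Prkcz-/- was above every WT library for 25 and below for 8, and the groups overlapped for 10. Over all genes of the table that held for 29.0% and 30.1%. Among the 25 tested chains it was 17 above and 6 below, where 33.3% and 39.4% of all tested genes were, 72.7% in all. The 17 include Col10a1, Col15a1 and Col6a4, which had to differ. Among the 18 chains under the filter it was 8 above and 2 below, at levels where single reads matter, where 18.0% and 6.58% of all genes under the filter were. The 8 were Col2a1, Col11a2, Col6a5, Col9a2, Col20a1, Col22a1, Col23a1 and Col25a1, and the 2 were Col19a1 and Col24a1. Col9a2, listed at 0 throughout WT, measured 0.196, 0.345 and 0.267 FPKM in the others.

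Because partner chains moved unequally, their ratios were taken within each library, where scaling between libraries cancels. The height of a ratio depends on the gene lengths used, but its log2 shift between the groups does not. For type I, Col1a1 over Col1a2 was 1.56, 1.54 and 1.55 in WT libraries 1 to 3 and 3.65, 3.57 and 3.57 in the libraries labelled Prkcz-/-. That is a shift of 1.22 in log2 towards the α1 chain, larger than the spread within either group. Col3a1 over Col1a1 was 0.396, 0.413 and 0.396 in WT and 0.144, 0.1499 and 0.151 in the other group, a shift of -1.44, and so the type III chain was a smaller fraction of the type I chain there. Col5a1 over Col5a2 was 0.351, 0.351 and 0.3404 in WT and 0.478, 0.487 and 0.4702 in the other group, a shift of 0.46.

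In type VI, Col6a1 over Col6a2 was 2.83, 2.85 and 2.798 in WT and 1.71, 1.71 and 1.73 in the libraries labelled Prkcz-/- (shift -0.72). Col6a3 over Col6a1 was 0.622, 0.655 and 0.708 in WT and 0.147, 0.149 and 0.149 in the other group (shift -2.16). The long chain was thus far scarcer beside Col6a1 there. In FPKM, Col6a3 was below Col6a1 in every library. It was above Col6a2 in every WT library and below Col6a2 in every library labelled Prkcz-/-. For type IV, Col4a1 over Col4a2 was 1.403, 1.44 and 1.43 in WT and 1.204, 1.204 and 1.21 in the other group, the smallest shift of the 7 ratios, at -0.24. For type VIII, Col8a1 over Col8a2 was 71.9, 67.9 and 77.2 in WT and 7.77, 6.88 and 7.49 in the other group, the largest, at -3.29. The groups did not overlap in any of the 7. The exact permutation test, two-sided over libraries, gave p = 0.1 for each (0.1 also after Benjamini-Hochberg adjustment over the 7), the smallest that 3 libraries against 3 allow, so the test cannot pass 0.05 in this design.

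**Figure D4:**
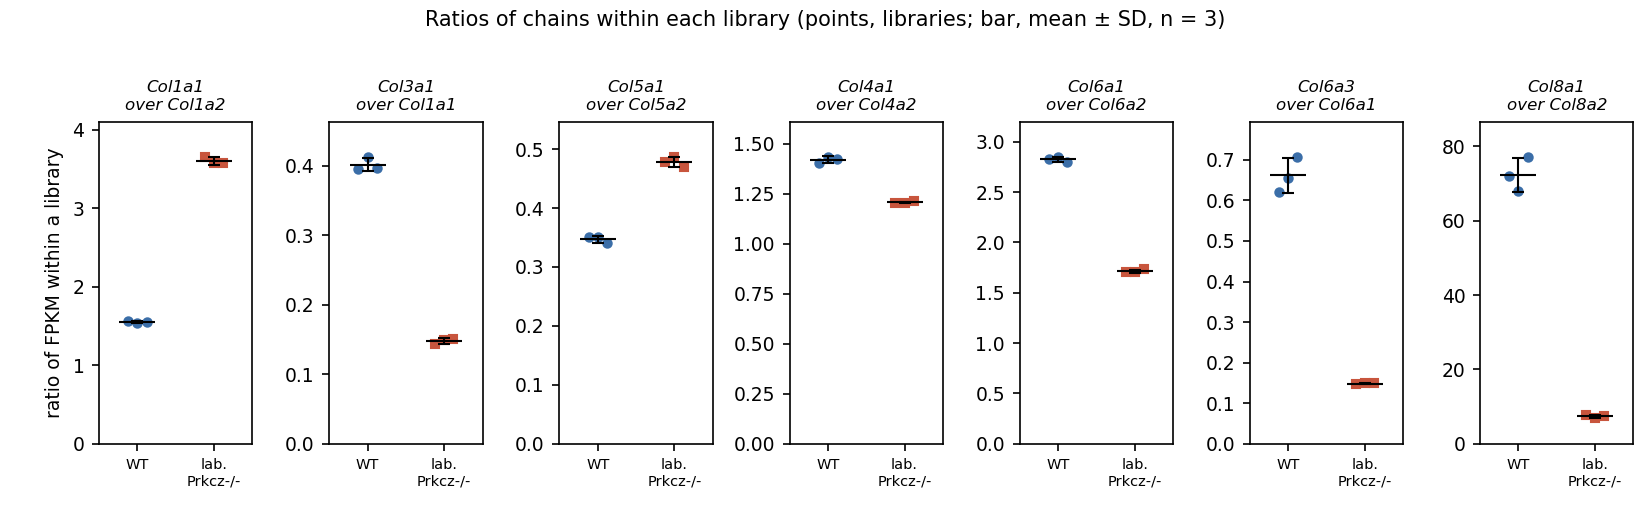
Ratio of FPKM of the named chains within each library, 1 panel per ratio with its own axis from 0, points for libraries and bars for the mean ± SD (n = 3). In every panel the libraries labelled Prkcz-/- ("lab.") lie apart from WT, from 1.55 ± 0.00766 to 3.60 ± 0.0477 for Col1a1 over Col1a2.

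Gene structure, which the choice of members did not use, differed between the classes. Many exons of fibrillar collagen genes have 54 bases or a related size, each coding whole repeats of the helix. In the annotation (GENCODE M21, mm10), exons of 45, 54 or 99 bases, or of 2 or 3 times 54 bases, made up 68.2% to 82.7% of the coding exons in the 11 fibrillar genes. The share was 80.4% for Col1a1, which rose, and 82.7% for Col1a2, which fell. The share was 6.15% to 58.7% in FACIT genes, 15.4% to 24.4% in the basement membrane genes, 10.0% to 17.1% in the microfibrillar genes and 2.50% and 7.32% in the multiplexins. The hexagonal network genes, with 2 coding exons each, had none. Neighbours in the genome did not always move alike. Col3a1 and Col5a2 lie tail to tail on chromosome 1, with 24614 bases between them, and the first fell while the second rose.

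Genes that act on collagen were read from 5 lists of enzymes, receptors and proteases, with the 3 most abundant tested members of each named. Over all tested genes 31.5% were called higher and 37.2% lower, and no list was tested as a set. Adamts3, Mmp9 and Fap passed the filter only through the libraries labelled Prkcz-/-, so that they had to differ. Of 19 genes for hydroxylation and folding of the chains 18 were tested, with 4 higher and 11 lower (median log2 difference -0.23). Serpinh1, the collagen chaperone HSP47, measured 1104, 1079 and 1099.6 FPKM in WT and 837, 854 and 853 FPKM in the libraries labelled Prkcz-/- (log2 difference -0.37, SE 0.0315, adjusted p = 2.24e-05). Pdia3, a disulfide isomerase, fell, at a log2 difference of -0.43. P4hb, the shared subunit of prolyl hydroxylase, was lower by only -0.10 (SE 0.0337, adjusted p = 0.0343). That is near the size of the 0.08 by which equalising sums without short RNA genes moved the median of all genes. Named after their values were seen, the lysyl hydroxylase Plod2 fell from 105 ± 3.05 to 36.3 ± 0.735 FPKM, and P3h2, a prolyl hydroxylase that acts on type IV collagen, rose from 0.942 ± 0.0999 to 12.95 ± 1.13 FPKM (SD, n = 3).

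Of 14 genes for export and trimming of procollagen 13 were tested, with 8 higher and 3 lower (median 0.16). Pcolce, which speeds removal of the C-terminal propeptide, and Bmp1, the protease that removes it, rose by small log2 differences of 0.16 and 0.14, and the COPII coat gene Sec24d fell, at -0.37. The 3 procollagen N-proteinases, named after their values were seen, rose more. Adamts2 measured 5.26, 5.62 and 5.37 FPKM in WT and 39.8, 40.3 and 40.7 FPKM in the libraries labelled Prkcz-/- (log2 difference 2.78, SE 0.0433, adjusted p = 3.66e-09). Adamts3 rose from 0.155 ± 0.0254 to 3.78 ± 0.314 FPKM and Adamts14 from 5.56 ± 0.213 to 13.5 ± 0.595 FPKM (SD, n = 3). Of 6 crosslinking genes 3 were higher and 2 lower (median 0.27). The lysyl oxidase Lox measured 313, 346 and 312 FPKM in WT and 475, 479 and 479 FPKM in the other group (log2 difference 0.56, SE 0.0445, adjusted p = 1.40e-05), Loxl1 was not called, at -0.02, and Loxl2 fell, at -0.15.

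Of 12 receptors 10 had a row and 9 were tested, with 5 higher and 3 lower (median 0.35). Itgb1, the β chain shared by all collagen-binding integrins, measured 504, 505 and 524 FPKM in WT and 360.1, 357 and 357 FPKM in the other group, lower at a log2 difference of -0.51 (SE 0.0307, adjusted p = 3.04e-06). The matrix receptor Cd44 fell, at -0.24, and Ddr2, a receptor tyrosine kinase for fibrillar collagen, rose, at 0.35. The integrin chain Itga11, which with Itgb1 binds type I collagen and was named after its values were seen, rose from 1.78 ± 0.409 to 22.2 ± 1.04 FPKM (SD, n = 3). Of 10 collagen-cutting proteases 7 had a row and 6 were tested, with 2 higher (Mmp9 and Fap, which is also on the fibroblast list) and 2 lower (median 0.08). Mmp14 was not called, at 0.07, while Mmp2 fell from 19.2 ± 1.45 to 8.104 ± 0.313 FPKM and Ctsk, a collagen-degrading lysosomal protease, from 26.4 ± 0.856 to 1.76 ± 0.211 FPKM (SD, n = 3).

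**Figure D5:**
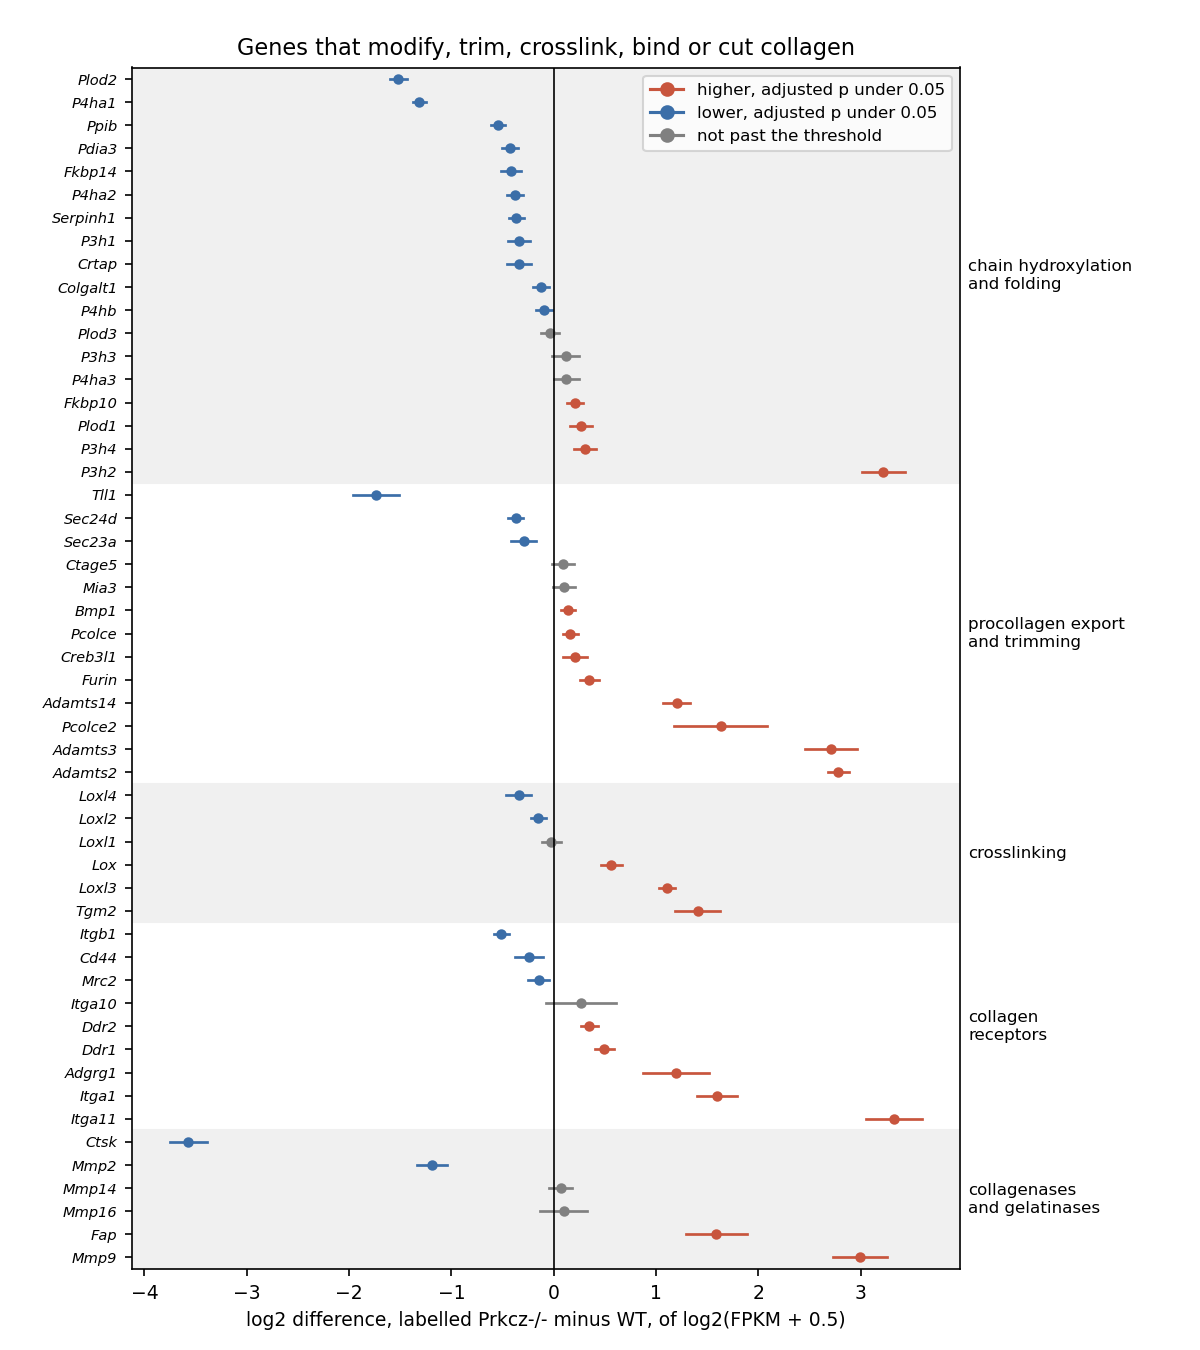
Points give the log2 difference (libraries labelled Prkcz-/- minus WT, log2(FPKM + 0.5)) and lines its 95% interval from limma, unadjusted, for the 52 tested genes of the 5 lists. Plod2 and P4ha1 lie lowest in the first list, Adamts2 and Adamts3 highest in the second, and Ctsk lowest of all. Adamts3, Mmp9 and Fap are drawn like the rest, although the filter meant that they had to differ.

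Markers of other cell types were also read beside these results. The shares over all tested genes, 31.5% higher and 37.2% lower, apply to these lists too. Of all marker lists, Fap, Rgs5 and Ano1 passed the filter only through the libraries labelled Prkcz-/-, and Lum and Msln only through WT. These genes had to differ. Smooth muscle genes, which fibroblasts in culture share in part, summed to 2676 to 2965 FPKM in WT and 3065 to 3176 FPKM in the other group, with 1 of 6 tested higher and 2 lower. Acta2 rose by 0.70 in log2 and Tagln was not called, at -0.10, Actg2 and Smtn fell by 3.11 and 0.70, and of the more restricted genes Myh11 was not called, at 0.27, and Des, under the filter, ranged over 0.374 to 0.719 FPKM in WT and 0.2302 to 0.297 FPKM in the other group, lower without overlap. Pericyte genes summed to 29.5 to 29.9 FPKM in WT and 20.1 to 21.9 FPKM in the other group, with 2 of 4 tested higher and 2 lower. Mcam fell, at a log2 difference of -0.62, and Notch3 rose by 0.33. Rgs5, a pericyte marker listed at 0 in each WT library, measured 1.47, 1.23 and 1.16 FPKM in the others, and Cspg4 fell from 3.35 ± 0.266 to 0.924 ± 0.106 FPKM (SD, n = 3); both were named after their values were seen. The mesothelial list summed to 5.13 to 5.87 FPKM in WT and 0.158 to 0.195 FPKM in the other group, of which Msln fell by 3.23 in log2 and Wt1, listed at 0 in each WT library, reached 0.0647 FPKM in the others. The immune list summed to at most 2.82 FPKM in any library, with Ptprc at or under 0.01103 FPKM. Cd68 led it, at 2.13 ± 0.335 and 1.73 ± 0.498 FPKM (SD, n = 3), and was not called. Csf1r, the next, was under the filter and higher without overlap, at 0.08497 to 0.123 FPKM in WT and 0.356 to 0.478 FPKM in the other group. Of the Cajal cell list Ano1 rose by 0.74 in log2, to at most 0.963 FPKM, and Kit was at or under 0.0114 FPKM. Of the adipocyte list 1 gene of 4, Adipoq, had a row, at or under 0.0606 FPKM. The part of the lists that differed between the groups in the collagen differences was not tested.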

How the data were processed

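RNA was made into polyadenylated, strand-specific, single-end libraries, per the labels' protocols. The build was mm10 and the tools named were STAR and DESeq2, per the submitters' processing notes. Not given in the sources used here are their roles and versions, the counting program, the annotation and the strand setting. One table of FPKM, normalized by the authors, was deposited for 16874 genes and 6 libraries. A count model was not fitted to these values. For the 12130 genes averaging 0.5 FPKM or more, log2(FPKM + 0.5) was compared with limma 3.58.1 in R 4.3.3 (eBayes with a variance trend, two-sided, Benjamini-Hochberg over all 12130, threshold 0.05). The same fit was also run on data simulated from the WT means and the fitted spread of these libraries. Log2 differences on this scale understate changes of low genes; folds are ratios of mean FPKM. Ratios within libraries had an exact permutation test (scipy 1.17.1). Depth and read numbers are estimates, since the authors' gene lengths are not known here; members matched GENCODE M21, and 35 of 43 had a RefSeq promoter. The members, classes and lists were chosen with earlier results of these data known. Chains with a mean of at least 5 FPKM in either group, and those whose groups do not overlap with at least 1 FPKM in the higher, were given for every library. The 3 most abundant tested genes of each companion list and the 2 of each marker list were named, and others as marked; 1 marker list is not reported here. Alternatives were other pseudocounts, filters, scalings and thresholds, no variance trend, a replicate block and leaving out each library.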

Additional observations from a re-analysis of the deposited data

How the results depend on the processing

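Under 15 other settings, 23 of the 25 tested chains kept their direction and their side of the threshold. The exceptions were Col6a3, whose log2 difference of -0.0065 turned to 0.024 with median-ratio scaling and 0.075 with sums equalised without short RNA genes, and ran from -0.054 to 0.045 when 1 library was left out (positive without WT replicate 2), and Col4a5, which passed the threshold without WT replicate 1. With pseudocounts of 0.1 and 1 the sizes of low chains moved most, to 6.68 and 4.31 in log2 for Col15a1, 5.13 and 3.07 for Col10a1, 4.82 and 2.31 for Col6a4, and 2.93 and 1.87 for Col14a1. With no filter on low values 23 chains were higher and 7 lower, where 25.8% and 26.8% of all genes were. With sums equalised without short RNA genes 54.7% of all calls were higher, against 45.9%. Leaving out 1 library gave 17 higher in each case, 6 to 7 lower, and 7648 to 8133 genes called in all, against 8336. The lowest count over all genes was 6836, at a threshold of 0.01. The 7 ratios kept their direction in every setting run. Col1a1 over Col1a2 ranged from 1.20 to 1.22 in log2, Col6a3 over Col6a1 from -2.20 to -2.11, and Col8a1 over Col8a2 from -3.34 to -3.11. Same-numbered libraries of both groups did not deviate together (correlations across genes 0.0599, 0.0148 and 0.00827), so the numbers were not taken as pairs. With the replicate number as a block, 17 chains were higher, 6 lower and 8093 genes called. Low depth limits the chains under 0.5 FPKM.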
